A study of Mus musculus with 6 samples.

Results

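The cytokine genes Il10 and Il21 and 4 transcription factor genes that control them, Maf, Nfil3, Ahr and Prdm1, were followed in mouse CD4+ T cells restimulated with or without ligation of the costimulatory receptor ICOS. The 6 genes were chosen by name, for their known place downstream of ICOS and with earlier results of these data known. They were taken from 19937 genes that carried 1 symbol on the array, and all 6 were measured, each by 1 probe set. The cells were purified as naive CD4+ T cells from the spleen of B6 mice, activated with antibodies to CD3 and CD28 for 2 days and rested overnight. They were then incubated for 20 min with anti-CD3 plus anti-ICOS or with anti-CD3 alone, and the bound antibody was cross-linked with a goat antibody to hamster immunoglobulin for 8 h. By the labels both groups had the same activation, rest and cross-linking, and differ in anti-ICOS. There were 2 arrays with anti-CD3 plus anti-ICOS and 4 with anti-CD3 alone, which the labels call biological replicates without saying whether they came from separate animals. The p-values therefore rest on the spread from array to array, which may be partly technical.

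Interleukin 10 restrains macrophages, dendritic cells and T cells, and in CD4+ T cells it is made by several effector lineages and by type 1 regulatory cells. Interleukin 21 acts on B cells and T cells through a receptor that shares the common gamma chain. ICOS signals mainly through phosphoinositide 3-kinase, and c-Maf, encoded by Maf, is a known mediator between ICOS and both cytokine genes. The aryl hydrocarbon receptor, encoded by Ahr, is a ligand-activated factor that works with c-Maf at Il10 and Il21. NFIL3 is a basic leucine zipper factor that promotes Il10 in helper T cells, and Blimp-1, encoded by Prdm1, is needed for Il10 in many of them and represses Il2 and Bcl6.

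Values are log2(intensity + 16) of the deposited normalized intensities. Array medians lay between 109 and 114 intensity units, and precision is limited by how few arrays there were. Anti-CD3 replicate 4 was the outlying array of its group by Dixon's test in 1197 of 19937 genes, where replicates 1 to 3 were in 73, 82 and 380; the test flags about 1 in 20 groups by chance over the 4 arrays. The results of the 6 genes are therefore given with that array, without it, and against it alone. The labels name no batch. Without replicate 4, a difference in handling between anti-CD3 replicates 1 to 3 and the anti-ICOS arrays cannot be told apart from anti-ICOS. In the comparison against replicate 4 alone, replicates 1 to 3 add only to the estimate of spread. Genes of T cells were bright on every array, with a mean log2 level of the 7 measured T cell markers of 11.71 and 11.77 with anti-ICOS and between 11.80 and 11.96 with anti-CD3. B cell and CD8 genes were bright as well. Cd79a, part of the B cell receptor complex, read 12.10 and 12.25 with anti-ICOS and from 12.18 to 12.35 with anti-CD3, and Cd8b1 read from 11.49 to 11.76 over the 6 arrays.

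The windows before the start sites of Il21 and Prdm1 are shown because they hold core letters of the factors studied. RefSeq windows were matched for 3 of the 6 genes, these and Nfil3. Each window is the 250 bases before the start, on the minus strand of GRCm38.p6, at chr3:37232637-37232886 for Il21 and chr10:44458749-44458998 for Prdm1. Capitals mark matches to the MAF core TGCTGA or the AHR core GCGTG, which appears here from the opposite strand as CACGC.
Il21: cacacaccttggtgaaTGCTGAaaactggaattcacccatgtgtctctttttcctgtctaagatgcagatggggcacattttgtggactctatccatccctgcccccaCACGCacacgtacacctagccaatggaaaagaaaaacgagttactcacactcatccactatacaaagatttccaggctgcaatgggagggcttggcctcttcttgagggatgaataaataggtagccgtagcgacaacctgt
Prdm1: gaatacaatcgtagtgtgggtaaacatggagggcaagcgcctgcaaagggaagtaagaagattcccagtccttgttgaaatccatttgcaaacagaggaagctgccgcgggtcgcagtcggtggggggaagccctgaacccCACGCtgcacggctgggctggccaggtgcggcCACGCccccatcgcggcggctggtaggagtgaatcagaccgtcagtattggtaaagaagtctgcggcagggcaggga

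The Il21 window held 1 MAF core and 1 AHR core, and the Prdm1 window 2 AHR cores. Both strands were searched for these letters and for TTANGTAA (NFIL3) and GTGAAAG (PRDM1), and these 4 motifs shared no bases in the windows printed. Among 32851 windows of the same length, the MAF core occurred in 16.1%, the AHR core in 28.2%, the NFIL3 letters in 2.06% and the PRDM1 letters in 3.57%. The Nfil3 window matched none of the 4. A match is a description of the letters and does not show binding.

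Il10 was higher with anti-ICOS. Its probe set, 10349603, read 7.32 and 7.01 on the log2 scale with anti-CD3 plus anti-ICOS, against 5.77, 5.83, 5.71 and 6.38 in anti-CD3 replicates 1 to 4. In intensity units that was 144 and 113 with anti-ICOS, against 38.4, 40.9 and 36.4 in replicates 1 to 3 and 67.3 in replicate 4. Replicates 1 to 3 lay below the 25th percentile of every array, which lay between 41.2 and 45.0. No detection call was used, so a level above background is not shown for them, and the size of the difference depends on the offset. The groups did not overlap, and replicate 4 lay above the other anti-CD3 arrays. The means were 7.16 ± 0.22 (SD, n = 2) with anti-ICOS and 5.92 ± 0.31 (SD, n = 4) with anti-CD3, a difference of 1.24 ± 0.20 (SE, 95% interval 0.77 to 1.71). This did not pass the test over all genes (limma adjusted p = 0.0957). Only 58 of 19937 genes, Il10 included, had a difference at least as large. Without replicate 4 the difference was 1.39 ± 0.10 (adjusted p = 0.000124), and against replicate 4 alone it was 0.78 ± 0.13 (adjusted p = 0.114).

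Il21 stayed at the dim end of the array in every culture. Probe set 10497886 read 5.27 and 5.19 with anti-CD3 plus anti-ICOS, against 5.16, 5.18, 5.16 and 5.16 in anti-CD3 replicates 1 to 4. These are intensities from 19.7 to 22.6, below the 25th percentile of every array, which lay between 41.2 and 45.0. No detection call was used here, so a level above background is not shown. The groups did not overlap, but anti-ICOS replicate 2 exceeded the highest of them, replicate 2 at 5.184, only in the third decimal, at 5.186. The difference was 0.063 ± 0.066 (SE, limma adjusted p = 0.602) with a 95% interval of -0.093 to 0.22, and it did not pass without replicate 4 either (0.061 ± 0.063, adjusted p = 0.476) or against replicate 4 alone (0.068 ± 0.085, adjusted p = 1.00). On the offset scale used, a change in so dim a probe set is understated; with an offset of 1 the difference was 0.11 (adjusted p = 0.520).

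Maf was higher with anti-ICOS, and also in anti-CD3 replicate 4. Probe set 10581992 read 9.32 and 9.10 with anti-CD3 plus anti-ICOS, against 7.93, 7.90 and 7.88 in anti-CD3 replicates 1 to 3 and 8.78 in replicate 4. The groups did not overlap, and replicates 1 to 3 lay within 0.05 of each other while replicate 4 lay 0.87 above their mean. The difference over all 6 arrays was 1.08 ± 0.26 (SE, 95% interval 0.47 to 1.70, limma adjusted p = 0.310). Without replicate 4 it was 1.30 ± 0.08 (adjusted p = 7.82e-05), and against replicate 4 alone 0.43 ± 0.11 (adjusted p = 0.413).

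Nfil3 rose with anti-ICOS and was the only gene of the 6 past the test on all 6 arrays. Probe set 10409278 read 8.60 and 8.26 with anti-CD3 plus anti-ICOS, against 7.68, 7.61, 7.55 and 7.60 in anti-CD3 replicates 1 to 4. Replicate 4 lay among the other anti-CD3 arrays. Means of 8.43 ± 0.24 (SD, n = 2) with anti-ICOS and 7.61 ± 0.05 (SD, n = 4) with anti-CD3 gave a difference of 0.82 ± 0.11 (SE, 95% interval 0.58 to 1.07, limma adjusted p = 0.0449). The p was close to the threshold of 0.05, and the call ended without any 1 array other than replicate 4 (adjusted p up to 0.215). The difference was 0.82 without replicate 4 (adjusted p = 0.00141) and 0.83 against replicate 4 alone (adjusted p = 0.114).

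Ahr read 8.86 and 8.60 with anti-CD3 plus anti-ICOS, against 7.84, 8.14, 7.77 and 7.98 in anti-CD3 replicates 1 to 4 (probe set 10400006). The groups did not overlap. Replicate 2 was the highest anti-CD3 array here, and replicate 4 lay inside the range of the others. The difference was 0.80 ± 0.13 (SE, 95% interval 0.49 to 1.10, limma adjusted p = 0.0975). It was 0.81 without replicate 4 (adjusted p = 0.00333) and 0.75 against replicate 4 alone (adjusted p = 0.321).

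Prdm1 read 8.49 and 8.20 with anti-CD3 plus anti-ICOS, against 7.42, 7.42 and 7.31 in anti-CD3 replicates 1 to 3 and 7.69 in replicate 4 (probe set 10368970). Again the groups did not overlap, and replicate 4 was the highest of the anti-CD3 arrays. The difference was 0.89 ± 0.13 (SE, 95% interval 0.59 to 1.19, limma adjusted p = 0.0670). It was 0.97 without replicate 4 (adjusted p = 0.000462) and 0.66 against replicate 4 alone (adjusted p = 0.183).

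**Figure D1:**
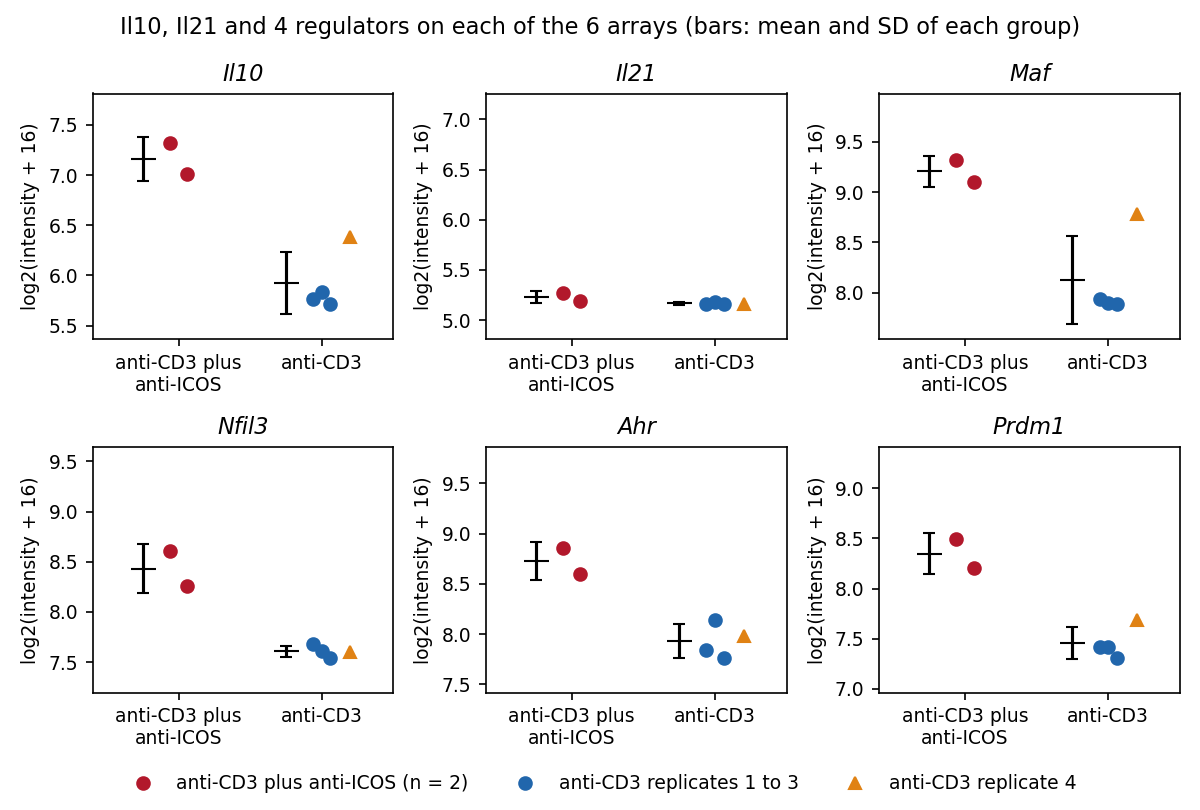
Each panel shows log2(intensity + 16) of 1 gene, with the 2 anti-CD3 plus anti-ICOS arrays at the left and the 4 anti-CD3 arrays at the right, replicate 4 as a triangle; bars are the group mean and SD, and all panels span the same log2 range. The triangle lies 0.87 above replicates 1 to 3 for Maf and 0.61 above for Il10, and with replicates 1 to 3 for Nfil3 and Ahr.

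Of the 6 genes, 1 passed on all 6 arrays, against 0.271% of all genes. Without replicate 4 it was 5 of 6, all but Il21, against 29.7% of all genes in either direction and 17.1% in the higher direction. Against replicate 4 alone it was 0 of 6, against 0.176% of all genes. In 6 of 6 genes the lowest anti-ICOS array exceeded the highest anti-CD3 array, against 8.51% of all genes. The median difference of the 6 genes was 0.86, beside -0.03 for all genes, and against replicate 4 alone it was 0.70, beside -0.01. Because the 6 genes were chosen with earlier results of these data known, these comparisons with all genes are a description and not a test. Anti-ICOS replicate 1 read higher than anti-ICOS replicate 2 in 6 of 6 genes, by 0.09 for Il21 and 0.22 to 0.34 for the others, where 44.4% of all genes did.

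**Figure D2:**
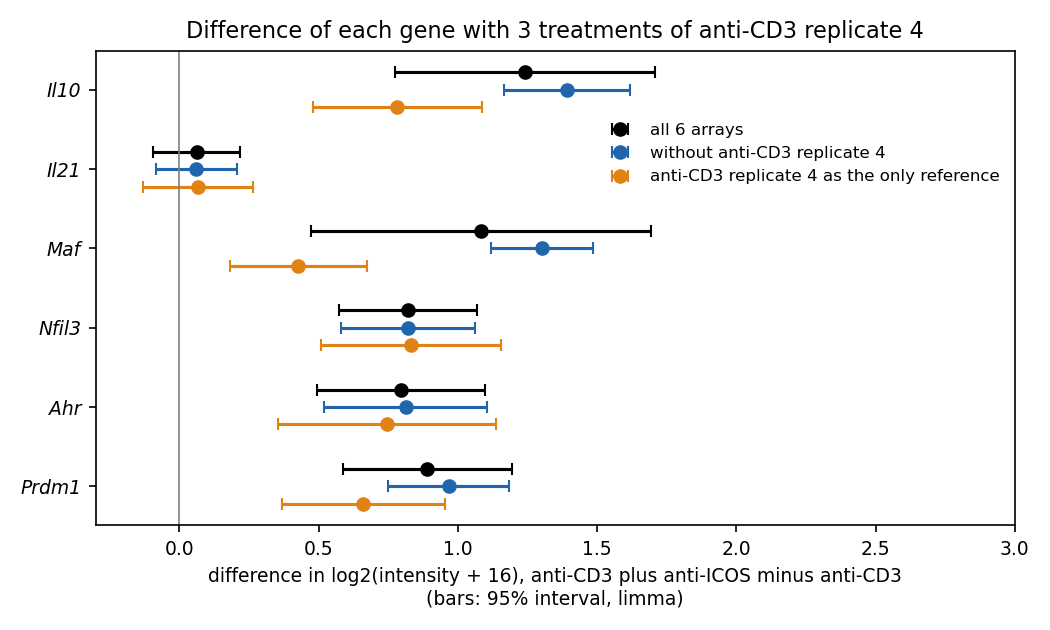
Points are the differences in log2(intensity + 16) between anti-CD3 plus anti-ICOS and anti-CD3 alone, the difference positive where anti-ICOS was higher, with 95% intervals from limma, for all 6 arrays, without anti-CD3 replicate 4 and with that replicate as the only reference. The 3 estimates lie between 0.82 and 0.83 for Nfil3, and run from 0.43 to 1.30 for Maf.

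The regulators differed in where replicate 4 stood between the other arrays. On a scale where the mean of anti-CD3 replicates 1 to 3 is 0% and the mean of the anti-ICOS arrays is 100%, replicate 4 stood at 67.1% for Maf, 43.8% for Il10, 31.7% for Prdm1, 8.25% for Ahr and -1.51% for Nfil3. For Il21 the groups are too close for such a position. Among the 752 genes that were higher with anti-ICOS by 1.5-fold or more without replicate 4, which include these 5, the median position was 90.9% and the quartiles 55.7% and 110.7%. Of these 752 genes, 5.85% stood at or below Nfil3, 8.11% at or below Ahr, 15.96% at or below Prdm1, 19.5% at or below Il10 and 29.7% at or below Maf. The positions are a description of a single array, with no test.

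**Figure D3:**
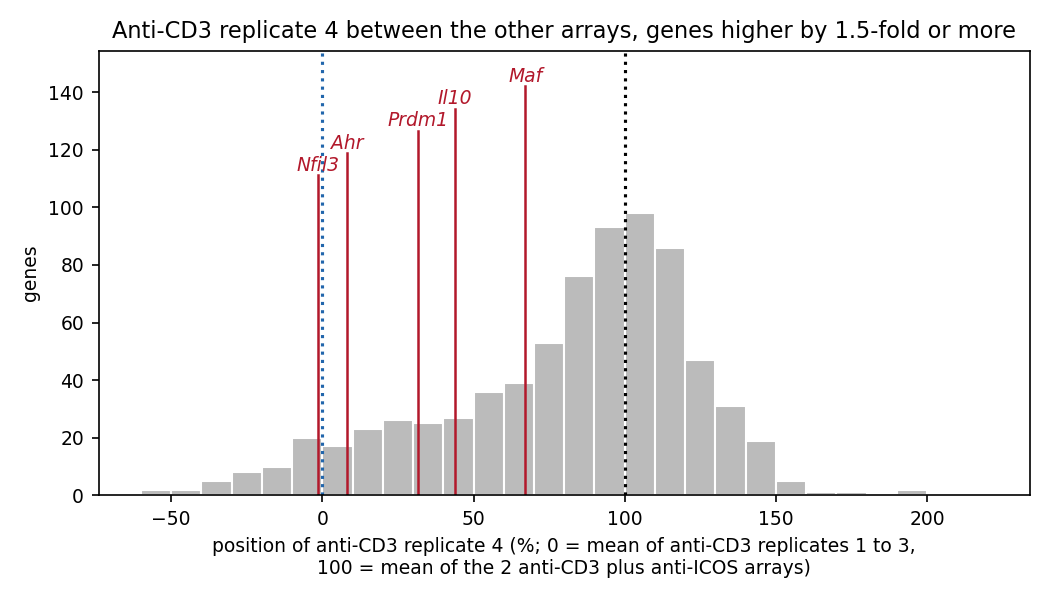
The histogram counts the 752 genes higher by 1.5-fold or more without anti-CD3 replicate 4 by the position of that replicate, from 0% (mean of anti-CD3 replicates 1 to 3) to 100% (mean of the anti-ICOS arrays); values beyond the axis are drawn in the end bins. Red lines mark Nfil3, Ahr, Prdm1, Il10 and Maf, all below the median of 90.9%.

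Patterns over the 6 arrays were compared by the root mean square difference between log2 profiles, each centred on its own mean. Il10 and Maf lay 0.13 apart, with 4 genes nearer to Il10 than Maf was. Nfil3, Ahr and Prdm1 lay 0.12 to 0.14 from each other, and 0.20 to 0.34 from Il10 and Maf. Il21 lay 0.37 to 0.60 from the other 5. The gene nearest to Il10 was Cish, a cytokine-induced inhibitor of STAT signalling, at 0.022: it read 9.33 and 9.06 with anti-ICOS, against 7.85, 7.86 and 7.76 in anti-CD3 replicates 1 to 3 and 8.42 in replicate 4. Next came Dnase1l3, a secreted DNase gene, at 0.049 and the nuclear receptor gene Nr4a3 at 0.093. Nr4a3 was also nearest to Maf, at 0.045, before Arhgap5 at 0.11 and the IL-5 receptor gene Il5ra at 0.12. For Nfil3 the nearest were Ube2l6, which encodes the E2 enzyme of ISG15 conjugation, at 0.087, Gclc, of glutathione synthesis, at 0.096 and Mfsd2b, a sphingosine 1-phosphate exporter gene, at 0.10. Of these 3 Ube2l6 was past the test (difference 0.67 ± 0.09, limma adjusted p = 0.0465). For Ahr they were Rbm47, Nrp2 and Rin2, at 0.10 to 0.11. For Prdm1 they were Lad1, Lgals3, which encodes galectin 3, and Nrp2, at 0.050 to 0.058, and of these Lgals3 was past the test (0.91 ± 0.11, adjusted p = 0.0412). For Il21, which hardly varied, they were Cdx4, Mbd3 and Btg1b, at 0.011 to 0.016.

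The neighbours of the 6 genes on the chromosome, by the order of measured genes in GRCm38.p6, did not pass the test. Beside Il10, its family member Il19 differed by -0.07 ± 0.10 and the kinase gene Mapkapk2 by -0.03 ± 0.09. Beside Il21, Il2 differed by 0.56 ± 0.20 (limma adjusted p = 0.417). Il2 read 7.21 and 7.37 with anti-CD3 plus anti-ICOS, against 6.67, 6.47 and 6.58 in anti-CD3 replicates 1 to 3 and 7.22 in replicate 4, so that replicate 4 stood with the anti-ICOS arrays. Cetn4, on the other side of Il21, differed by -0.11. Wwox and Dynlrb2 beside Maf differed by 0.13 and -0.14, Auh and Ror2 beside Nfil3 by 0.27 and -0.17, Mir680-3 and Agr3 beside Ahr by -0.50 and 0.05, and Atg5 and Prep beside Prdm1 by 0.37 and 0.06. Without replicate 4, Il2 (0.72, adjusted p = 0.000927), Auh, Ror2, Mir680-3 and Atg5 were past the threshold. Against replicate 4 alone the differences of Il19, Mapkapk2, Ror2, Agr3, Atg5 and Prep had the opposite sign.

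The wider pathway was read from 9 lists of genes, 72 different genes measured. None passed on all 6 arrays, where 0.271% of all genes did, and none passed against replicate 4 alone; at an unadjusted p under 0.05, 1245 of all genes were higher and 1109 lower. Without replicate 4, 31 of the 72 were higher and 4 lower, against 17.1% and 12.7% of all genes. The counts of each list below without replicate 4 are to be read beside the same shares. The median difference of the 72 was 0.14, beside -0.03 for all genes.

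Receptors and signalling genes of the 2 cytokines had a median difference of 0.18 over 10 measured genes. Without replicate 4, 5 were higher and 0 lower. The receptor chains Il10ra, Il10rb and Il21r differed by -0.01 ± 0.09, 0.14 ± 0.11 and 0.18 ± 0.10, and against replicate 4 alone Il10rb and Il21r were at -0.07 and -0.0031, while Il10ra was at 0.04 without that array. Stat3, the main transducer of both receptors, differed by 0.17 ± 0.08. The feedback inhibitor Socs1 differed by 0.85 ± 0.17 (limma adjusted p = 0.185), with 9.67 and 9.49 with anti-ICOS, against 8.56, 8.67 and 8.57 in anti-CD3 replicates 1 to 3 and 9.13 in replicate 4. Stat5a and Tyk2, a STAT and a Janus kinase gene, differed by 0.43 ± 0.09 and 0.36 ± 0.11, and Socs3 by 0.45 ± 0.14.

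Receptors of cytokines that induce Il10 had a median of 0.21 over 8 genes, and of -0.01 against replicate 4 alone. Without replicate 4, 5 were higher. Tgfbr1, a chain of the TGF-beta receptor, read 8.84 and 8.73 with anti-ICOS, against 7.97, 8.15 and 8.11 in anti-CD3 replicates 1 to 3 and 8.77 in replicate 4. Its difference was 0.53 ± 0.21 on all arrays and 0.02 against replicate 4. Il4ra differed by 0.34 ± 0.12, Il12rb1 by 0.27 ± 0.10 and Il27ra, the IL-27 receptor gene, by 0.14 ± 0.10, with Il27ra at -0.07 against replicate 4 alone. The other measured cytokines of the IL-10 family did not go with Il10: Il19, Il20 and Il24 differed by -0.07, -0.18 and -0.15, and none was past the threshold with or without replicate 4.

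Of 13 other factors known to activate Il10, 6 were higher and 0 lower without replicate 4, with a median of 0.20 on all arrays. Jun, an AP-1 subunit, had the smallest p. It read 9.28 and 8.93 with anti-CD3 plus anti-ICOS, against 8.28, 8.28 and 8.01 in anti-CD3 replicates 1 to 3 and 8.44 in replicate 4, a difference of 0.85 ± 0.14 (limma adjusted p = 0.109). Irf4, which pairs with BATF at AP-1 sites, differed by 0.29 ± 0.08 and Egr2 by 0.25 ± 0.10. Gata3 and Stat4 differed by -0.06 ± 0.08 and -0.03 ± 0.07, and by 0.06 and 0.0048 against replicate 4 alone. Among 7 measured factors that oppose Il10 or Prdm1, the median was 0.05 on all arrays. Bcl6, the mutual antagonist of Prdm1, read 9.36 and 9.27 with anti-ICOS, against 8.78, 8.84 and 8.60 in anti-CD3 replicates 1 to 3 and 9.39 in replicate 4. Its difference was 0.41 ± 0.20, 0.57 without replicate 4 (adjusted p = 0.00294) and -0.08 against replicate 4. Bhlhe40, a repressor of Il10, differed by -0.21 ± 0.26 on all arrays and fell by 0.43 without replicate 4 (adjusted p = 0.0121), but against replicate 4 alone the difference was 0.44 (95% interval 0.16 to 0.73, adjusted p = 0.545), with 9.47 and 9.39 with anti-ICOS, against 8.99 in replicate 4. Ets1 and Lef1 differed by -0.11 each.

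For the aryl hydrocarbon receptor pathway, 4 of 7 measured genes were higher without replicate 4, and the median was 0.32 on all arrays and 0.20 against replicate 4. Nqo1, a quinone reductase gene controlled by this receptor and by NRF2, read 6.78 and 6.34 with anti-CD3 plus anti-ICOS, against 5.65, 5.79 and 5.67 in anti-CD3 replicates 1 to 3 and 5.42 in replicate 4, its lowest array. The difference was 0.92 ± 0.15 (SE, limma adjusted p = 0.0957). The targets Tiparp and Ahrr, both feedback inhibitors of the receptor, differed by 0.66 ± 0.15 and 0.32 ± 0.10, with adjusted p of 0.271 and 0.413. The cytochrome genes Cyp1a1 and Cyp1b1, which the receptor induces in many tissues, differed by -0.06 ± 0.07 and -0.03 ± 0.10, and its partner gene Arnt by 0.06 ± 0.08. Against replicate 4 alone Cyp1b1 was at 0.11 and Arnt at -0.08. The targets thus differed among themselves, and their differences from each other were not tested.

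Relatives of Maf and Nfil3 in the basic leucine zipper family had a median difference of 0.0015 over 8 measured genes. Past the threshold without replicate 4 was 1 of the 8, where 17.1% of all genes were higher. That gene was Mafk, a small Maf protein gene, with 0.33 ± 0.15 on all arrays, 0.44 without replicate 4 (limma adjusted p = 0.00460) and -0.01 against it. Mafg differed by 0.22 ± 0.11 and Nrl by -0.10 ± 0.09, with Nrl at 0.05 against replicate 4 alone. Of 6 measured genes that Blimp-1 is known to repress in T cells, 3 were higher and 1 lower without replicate 4. The higher ones were Il2, Bcl6 and Cxcr5, and the lower one was Ccr7, a homing receptor gene, which fell by 0.28 (adjusted p = 0.0353) but was at 0.21 against replicate 4 alone. Cxcr5, the follicle homing receptor gene, read 8.87 and 9.08 with anti-ICOS and 9.02 in anti-CD3 replicate 4, above the others of its group at 8.40, 8.50 and 8.17.

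Surface and effector genes of T cells that make IL-10 had a median of 0.32 over 11 genes, with 7 higher and 2 lower without replicate 4. Pdcd1, which encodes the inhibitory receptor PD-1, differed by 0.54 ± 0.10 (limma adjusted p = 0.143) and Nt5e, the ectonucleotidase CD73, by 0.41 ± 0.09. Icos itself differed by 0.38 ± 0.11. Havcr2, the gene of TIM-3, differed by 0.83 ± 0.27 and Tigit by 0.34 ± 0.11. The 2 lower genes were the inhibitory receptors Ctla4 and Lag3, at -0.30 ± 0.10 and -0.21 ± 0.10 on all arrays and -0.37 and -0.26 without replicate 4 (adjusted p = 0.00546 and 0.0480).

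**Figure D4:**
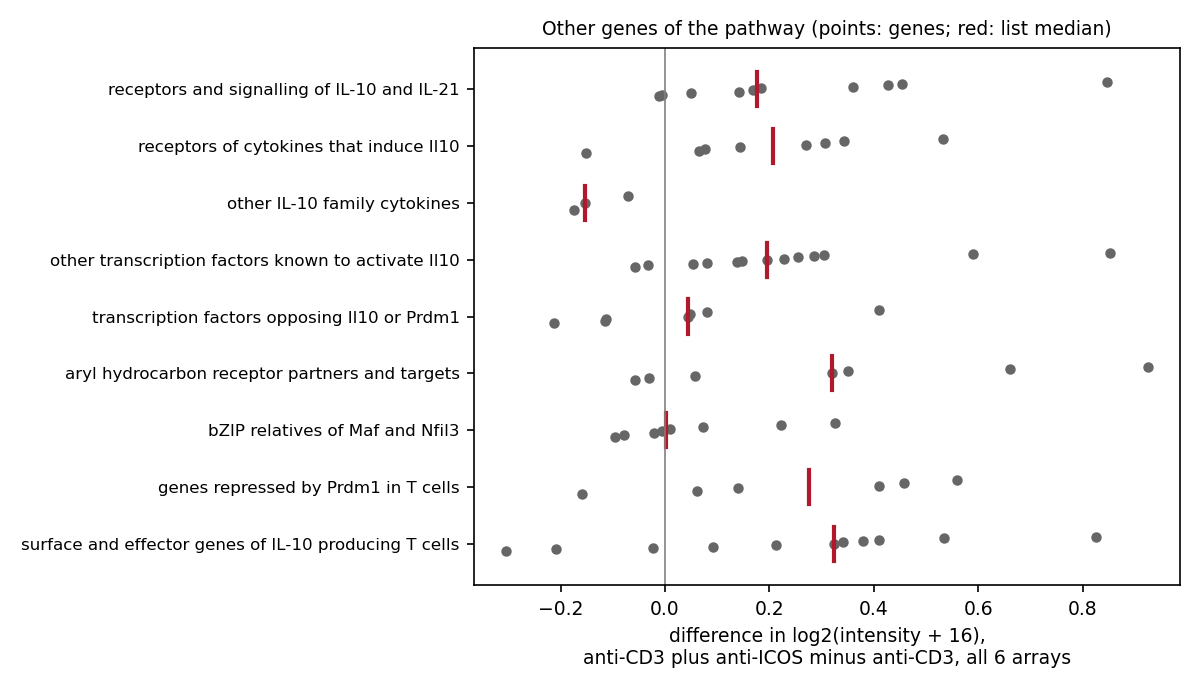
Each point is the difference of 1 gene in log2(intensity + 16) on all 6 arrays, positive where anti-CD3 plus anti-ICOS was higher than anti-CD3, and red bars are list medians. Medians lie between -0.15, for the other IL-10 family cytokines, and 0.32; no point passed the test over all genes.

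Il10, Maf, Ahr and Prdm1 are also expressed by cells other than T cells, among them macrophages, dendritic cells, B cells and plasma cells, and markers of such cells moved between the groups. In these bulk samples a larger share of cells of a type and more RNA per cell cannot be told apart. No marker was listed at 0 on any array, but the lowest intensity of any probe set was 7.23, so this does not show that a marker was detected. Flt3, a dendritic cell receptor gene, rose by 1.26 ± 0.09 (limma adjusted p = 0.00321) and was the only gene of the 65 measured marker entries past the test on all arrays. It read 8.05 and 8.26 with anti-ICOS, against 6.86, 6.86 and 6.89 in anti-CD3 replicates 1 to 3 and 6.997 in replicate 4. Replicate 4 thus stood at 9.98% on the scale above for this gene. Itgax, also on the dendritic cell list, was higher by 1.08 without replicate 4, and replicate 4 stood at 75.2% for it. Over the 10 dendritic cell markers the median was 0.11, with 4 of 10 higher without replicate 4. Their summed intensity was 19403 and 21192 with anti-ICOS, against 17998 to 20545 with anti-CD3. Without replicate 4, 17.1% of all genes were higher and 12.7% lower, and the counts of every marker list are to be read beside these shares.

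Monocyte and macrophage markers, 12 measured, had a median difference of 0.26, with 5 higher without replicate 4. Their summed intensity was 1522 and 2224 with anti-ICOS, against 1469 in anti-CD3 replicate 4 and 1019 to 1077 in replicates 1 to 3. The lysozyme gene Lyz2 read 8.47 and 9.67 with anti-ICOS, against 8.53 in replicate 4 and 6.71, 6.70 and 6.77 in replicates 1 to 3, and Csf1r differed by 0.47 ± 0.10. Adgre1 was higher by 1.81 without replicate 4, which stood at 103.7% on the scale above for this gene. C1qa, Cd163, Mrc1 and Fcgr1 differed by -0.06, -0.08, -0.03 and -0.10, with C1qa at 0.06 and Mrc1 at 0.02 against replicate 4 alone. By summed intensity these markers were higher in anti-ICOS replicate 2 than in replicate 1.

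Plasma cell markers, 4 measured with 2 higher and 1 lower without replicate 4, summed to 3612 and 3233 intensity units with anti-ICOS, against 2969 in anti-CD3 replicate 4 and 1314 to 1511 in replicates 1 to 3. Jchain, the joining chain gene of secreted immunoglobulin, read 11.17 and 10.79 with anti-ICOS, against 10.68 in replicate 4 and 8.85, 8.87 and 8.62 in replicates 1 to 3. Plasma cells are a known site of high Prdm1 expression. Sdc1 differed by 0.19 ± 0.12 and Tnfrsf17 by -0.27 ± 0.09. For B cells, 8 markers measured with 4 higher without replicate 4, the sums were 18137 and 20021 with anti-ICOS, against 15948 to 20006 with anti-CD3, and Cd79b differed by 0.16 ± 0.11 on all arrays and by -0.02 against replicate 4 alone.

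Of the remaining lists, NK cell markers had a median of 0.30 over 6 genes (4 higher without replicate 4) and sums of 2937 and 2860 with anti-ICOS, against 2303 to 3078 with anti-CD3; Ncr1 differed by 0.75 ± 0.10 (limma adjusted p = 0.0514) and Klrb1c by 0.32 ± 0.09. Mast cell and basophil markers had a median of 0.38 over 8 genes (4 higher without replicate 4) and sums of 603 and 804 with anti-ICOS, against 410.5 to 471.6 with anti-CD3; Cpa3 differed by 1.00 ± 0.18 and Fcer1a by -0.00041 ± 0.070. Neutrophil markers had a median of 0.30 over 8 genes (3 higher without replicate 4) and sums of 603 and 1416 with anti-ICOS, against 439 to 565 with anti-CD3. S100a8 differed by 0.45 ± 0.13 and S100a9 by 0.0029 ± 0.15, and the differences of the list on all arrays ran from -0.20 to 1.67. Without replicate 4, Mpo, Ngp and Elane were higher by 1.65, 1.21 and 1.07, and replicate 4 stood at -6.02%, -10.1% and -3.61% for them. T cell markers had a median of -0.11, with Cd3e at -0.27 ± 0.11 and Cd3d at -0.03 ± 0.08, and Cd8a and Cd8b1 differed by 0.08 ± 0.11 and 0.10 ± 0.09, and by -0.13 and -0.07 against replicate 4 alone. The part of these other cell types in the differences of Il10, Maf, Nfil3, Ahr and Prdm1 was not tested.

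**Figure D5:**
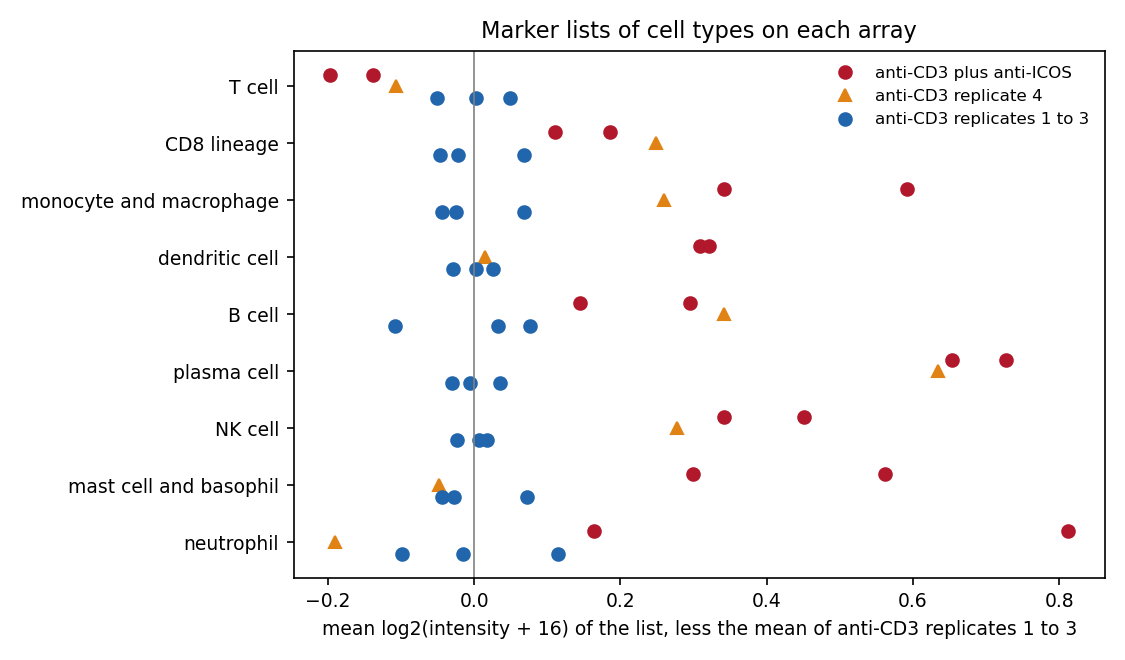
Points are the mean log2(intensity + 16) of each marker list on an array, set to 0 at the average of anti-CD3 replicates 1 to 3, with anti-CD3 plus anti-ICOS at the top of each row, replicate 4 as a triangle and replicates 1 to 3 below. Replicate 4 lies with the anti-ICOS arrays for plasma cell markers and with replicates 1 to 3 for dendritic cell and mast cell markers.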

How the data were processed

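Biotin-labelled RNA from 6 cultures, 1 ug of each per the labels, was read on 1-colour Affymetrix arrays. The authors deposited intensities that were already normalized, 1 value per probe set, running from 7.23 to 22176 on a linear scale. The submitters' processing notes name MAS5; how the values were normalized, background-corrected and centred is not stated. Had the arrays been scaled to equal levels, a common shift of most genes would be hidden. Sample titles gave the groups and replicate numbers.

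Of 34760 probe sets, 21640 with 1 symbol were used (1321 had several, 11799 none), and the brightest stood for its gene, giving 19937 genes. Values were taken as log2(intensity + 16), which makes changes of dim genes smaller, with no filter. Groups were compared by limma 3.58.1 in R, version 4.3.3, by moderated linear models with 4 residual degrees of freedom, two-sided, with Benjamini-Hochberg adjustment over every gene and a threshold of 0.05; a positive difference means higher with anti-ICOS. The steps were tested on simulated data. The alternatives were 2 other normalizations, a filter, a trended prior, array weights, other uses of probe sets, other offsets, a replicate block, each array left out, and anti-CD3 replicate 4 as the only reference.

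The 6 genes and the lists were chosen with earlier results of these data known. Of the list entries, 73 of 82 for pathways and 65 of 68 for markers were measured; lists are described by counts and medians. Genes named are the 6, the 3 of smallest p in each pathway list and any past the test, the opening pair of each marker list, the 3 genes of most alike pattern and the nearest measured genes on either side. Other list members in the text were chosen after their values were seen. Motif letters were searched in RefSeq windows. Plots used matplotlib 3.10.9 in Python 3.11.15.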

Additional observations from a re-analysis of the deposited data

Results flagged for a closer look

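In 10 of 98 named genes 1 anti-CD3 array lay far from the other 3 by Dixon's test, which flags about 1 in 20 groups by chance. In 7 of these it was replicate 4: Maf at 8.78, Cish at 8.42, Nr4a3 at 9.03, Pdcd1 at 9.08, Tyk2 at 9.72, Lyz2 at 8.53 and Jchain at 10.68 on the log2 scale, each above replicates 1 to 3. For Il21 it was replicate 2, at 5.18, within a range of less than 0.03, and for Il24 and Tnfrsf17 replicate 3, at 6.18 and 6.70. Il10 stood just short of the limit, with replicate 4 at 6.38 and a gap of 0.823 of the range. Cish and Nr4a3 were named for their likeness to Il10 and Maf, so their flags are not independent of those genes.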

How the results depend on the processing

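Il10, Maf, Nfil3, Ahr and Prdm1 were higher with anti-ICOS under every alternative run, and Il21 was past the threshold under none. The dimmest 40% of genes included Il10 and Il21, so the filter gave no value for them. The cause of the changes below was not tested. Array quality weights gave anti-CD3 replicate 4 the lowest weight, 0.15, against 4.52, 1.07 and 0.38 in replicates 1 to 3. That fit is therefore not independent of the one without replicate 4. With these weights 9416 genes passed, and the differences of Il10 (1.37), Maf (1.26), Nfil3 (0.78), Ahr (0.84) and Prdm1 (0.93) passed. With an offset of 1 Prdm1 passed (0.95, adjusted p = 0.0485). Nfil3 did not pass with quantile normalization (0.73, limma adjusted p = 0.0615), median centring (0.82, 0.0583), every probe set tested (0.82, 0.0504), an offset of 64 (0.69, 0.0917; 28 genes in all) or anti-CD3 replicate 4 as the only reference (0.83, 0.114; 35 genes in all). Leaving out 1 array at a time gave 16 to 5931 genes, the most without anti-CD3 replicate 4, and differences of 1.09 to 1.40 for Il10, 0.97 to 1.30 for Maf, 0.65 to 0.99 for Nfil3, 0.66 to 0.93 for Ahr and 0.75 to 1.04 for Prdm1; without anti-CD3 replicate 4 all 5 passed, and without any other 1 array none did. With an anti-ICOS array left out, the lone array of its group is assumed to vary like the anti-CD3 group.

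With the replicate number as a block, 6557 genes passed, with differences of 1.36 for Il10, 1.29 for Maf, 0.74 for Ahr and 0.93 for Prdm1 past the threshold. Only 2 numbers are shared, which leaves 1 residual degree of freedom. Deviations of same-numbered arrays from their group means correlated at -0.04 and 0.10 across genes. The deviations of the 2 anti-ICOS arrays mirror each other, so these values cannot show whether same-numbered samples were paired.

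Differences of other named genes changed sign, none of them past the threshold on all 6 arrays, although Bhlhe40 and Ccr7 fell without anti-CD3 replicate 4. Against that replicate alone these were Bhlhe40 (0.44), Ccr7 (0.21), Cyp1b1 (0.11), Gata3 (0.061), C1qa (0.055), Mrc1 (0.022), Stat4 (0.0048), Arnt (-0.076), Il10rb (-0.073), Il27ra (-0.071), Il21r (-0.0031), Agr3 (-0.098), Atg5 (-0.036), Bcl6 (-0.079), Cd79b (-0.016), Cd8a (-0.13), Cd8b1 (-0.070), Cxcr5 (-0.037), Mafk (-0.014), Prep (-0.12), Il19 (0.041), Mapkapk2 (0.095), Nrl (0.051) and Ror2 (0.099). With quantile normalization they were Fcer1a (0.073), Il19 (0.020), Mbd3 (-0.0057), Prep (-0.013), C1qa (0.020), Cd163 (0.00036), Cyp1a1 (0.037), Cyp1b1 (0.064), Mrc1 (0.060) and Stat4 (0.0098). Il10ra was at 0.012 with array weights and 0.0068 with the replicate block, and Mrc1 at 0.020 and 0.056. Fcer1a was at 0.00022 with median centring, 0.044 with array weights, 0.029 with the replicate block and from -0.035 to 0.034 without single arrays. S100a9 was at -0.10 with array weights, -0.0017 with an offset of 64 and from -0.080 to 0.085 without single arrays, and Mapkapk2 from -0.069 to 0.026 without single arrays. Without single arrays C1qa ran from -0.14 to 0.010, Cyp1b1 from -0.078 to 0.025, Il10ra from -0.047 to 0.044 and Mrc1 from -0.068 to 0.045.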
